A study of Mus musculus with 4 samples.

Results

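The genes described here are 10 targets of p53 that promote cell death: Bax, Bbc3, Pmaip1, Perp, Fas, Tnfrsf10b, Eda2r, Ei24, Aen and Phlda3. They were taken by symbol from a deposited table of 22138 genes, and all 10 were found in it. The table came from an experiment on TT2 cells, which are mouse embryonic stem cells labelled as female and of C57BL/6xCBA background, in which Hnrnpk was depleted by small interfering RNA (siRNA). Both groups, control siRNA (n = 2) and Hnrnpk siRNA (n = 2), were kept feeder-free in medium with serum and LIF, a cytokine that keeps such cells undifferentiated. Each received its siRNA at 100 nM and again at 50 nM after 24 hours, and was harvested about 72 hours after the second dose. The series' design text calls the libraries of a group biological replicates. They come from 1 cell line, and the labels contradict themselves on the RNA, naming ribosomal RNA depletion in 1 place and poly(A) selection in another. The labels do not give the number of siRNAs per target. The series' title places hnRNP K, the protein of Hnrnpk, in silencing by the histone methyltransferase SETDB1.

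The protein p53, encoded by Trp53 in the mouse, is a transcription factor that is held low by the ubiquitin ligase MDM2 and accumulates after DNA damage and other stress. It then switches on genes that arrest the cell cycle and genes that promote apoptosis. The apoptotic targets act at several points: BH3-only proteins and BAX permeabilise the outer mitochondrial membrane, death receptors of the TNF receptor superfamily start signalling at the cell surface, and other targets act at the plasma membrane, the endoplasmic reticulum or the nucleus. Mouse embryonic stem cells are known to have abundant p53 and to enter apoptosis readily.

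Promoter sequences are shown first for the 3 of the 10 genes whose promoter held a pair of p53 half-sites, the pattern through which p53 is known to bind DNA. Windows from 250 bases before to 50 bases after annotated starts were taken from RefSeq on GRCm38.p6, and 7 of the 10 genes had one. Perp, Pmaip1 and Tnfrsf10b were not analysed here for promoter sequence. The p53 half-site is a pattern of 10 bases with the core CNNG, in which each N is A or T, flanked by 3 purines before and 3 pyrimidines after it. It reads the same on both strands, so 1 search covers both. A pair was counted where 2 half-sites with intact cores lay 0 to 13 bases apart with at most 3 mismatches in their flanks together, and half-sites could be shared between pairs. Capitals mark the half-sites of every such pair, and each sequence is written 5′ to 3′ on the strand of the gene.
Bbc3, chr7:16309333-16309632, plus strand: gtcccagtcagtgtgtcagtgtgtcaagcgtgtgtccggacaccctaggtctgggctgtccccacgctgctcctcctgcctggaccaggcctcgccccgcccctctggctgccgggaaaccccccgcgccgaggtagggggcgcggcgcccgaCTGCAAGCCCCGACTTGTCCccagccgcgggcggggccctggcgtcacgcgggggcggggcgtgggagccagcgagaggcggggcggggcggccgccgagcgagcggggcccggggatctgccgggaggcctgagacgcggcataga
Bax, chr7:45466849-45467148, minus strand: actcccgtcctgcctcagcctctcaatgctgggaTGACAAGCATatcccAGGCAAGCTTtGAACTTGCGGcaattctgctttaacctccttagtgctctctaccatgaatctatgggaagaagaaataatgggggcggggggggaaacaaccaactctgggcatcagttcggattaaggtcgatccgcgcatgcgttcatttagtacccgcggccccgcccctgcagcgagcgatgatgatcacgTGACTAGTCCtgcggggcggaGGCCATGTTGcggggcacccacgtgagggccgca
Aen, chr7:78895677-78895976, plus strand: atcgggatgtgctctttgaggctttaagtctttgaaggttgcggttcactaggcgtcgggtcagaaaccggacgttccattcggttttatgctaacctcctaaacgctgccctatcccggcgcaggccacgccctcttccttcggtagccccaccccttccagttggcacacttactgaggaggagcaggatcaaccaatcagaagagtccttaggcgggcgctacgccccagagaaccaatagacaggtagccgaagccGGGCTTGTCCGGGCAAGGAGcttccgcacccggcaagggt

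In Bbc3 the half-sites occupied bases 154 to 173 of the window with no gap and 3 mismatches. In Aen they occupied bases 261 to 280, again with no gap and 3 mismatches; a later annotated start of Aen held the same pair at bases 130 to 149 of its own window. The Bax window held 3 pairs. In the first Bax pair the bases ran from 35 to 59 with a gap of 5 and 2 mismatches, and in the next from 50 to 70 with a gap of 1 and 2 mismatches. The last, from 246 to 276, had a gap of 11 and 3 mismatches. Ei24 had no pair but 1 half-site without a mismatch, GGGCATGCCC at bases 241 to 250, and the windows of Fas, Eda2r and Phlda3 had neither. Pairs with no gap were thus present in 2 of the 7 genes with a window, against 0.673% of the 27025 genes with a promoter window. With a gap of up to 13 bases they were present in 3 of 7, against 7.63% of those genes. A match is a description of letters and not evidence of binding.

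Values were RPKM, reads scaled by the authors to gene length and library size. The targeted gene, Hnrnpk, which encodes the RNA- and DNA-binding protein hnRNP K, stood at 236 and 226 RPKM with control siRNA and at 68.0 and 70.5 RPKM with Hnrnpk siRNA (log2 change -1.73, SE 0.0629, limma adjusted p = 6.59e-08). Read totals were not analysed here. Relative depths, from the commonest ratio of low values, were 0.982, 0.891 and 0.882 for control replicate 2 and Hnrnpk siRNA replicates 1 and 2, relative to control replicate 1. The 10 markers of embryonic stem cells used to check the label were all detected and summed to 3935 to 4094 RPKM in the control and 4699 to 5022 RPKM with Hnrnpk siRNA. The sum rose while more members fell: 2 of the 10, Nanog and Dppa5a, were called higher, 4, among them Sox2 (log2 change -0.54), were called lower and 4 were not called, with a median log2 change of -0.15. Markers of fibroblasts, the usual feeder cells, summed to 9.45 to 10.95 and 5.44 to 5.66 RPKM. Of the 10 fibroblast markers 3 were tested, and 2 of them, Thy1 (6.90 and 5.20 against 2.22 and 2.28 RPKM) and Col1a1 (2.46 and 2.68 against 1.73 and 1.86 RPKM), were called lower, with log2 changes of -1.24 and -0.42. Pdgfrb, also tested, was not called (0.917 and 0.770 against 0.965 and 0.989 RPKM, log2 change 0.14). Thy1 was the largest part of the fibroblast sum in every library. None of the 10 was listed at 0 in all libraries. Over all genes tested, 32.2% were called higher and 35.0% lower. The markers named here were chosen after their values were seen.

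All 10 genes were higher in both Hnrnpk siRNA libraries than in both control libraries. The ratio of mean RPKM ran from 1.32 for Ei24 to 6.40 for Fas. Genes were tested with limma on log2(RPKM + 0.5) when their mean over the 4 libraries was at least 0.5 RPKM, which 9 of the 10 met. Fas did not. The 9 tested genes were called higher at a Benjamini-Hochberg adjusted p under 0.05, where 32.2% of the 12486 genes tested were called higher and 67.2% were called in either direction. They had 6.25 RPKM or more in every control library, so none passed the filter through the Hnrnpk siRNA group alone. A log2 change of at least 1 was reached by 4 of the 9, Perp, Phlda3, Pmaip1 and Eda2r, where 4.0% of all genes tested were called higher at that size. Among all genes tested, 41.2% had Hnrnpk siRNA values that were both above both control values. The median log2 change of the 9 genes was 0.87, against -0.015 over all genes tested. For 1 gene, the smallest p of an exact permutation test of 2 against 2 libraries is 0.333, and the calls depend on limma's pooling of variance over genes. In bulk RNA, more cells expressing a gene and more RNA per cell cannot be told apart.

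**Figure D1:**
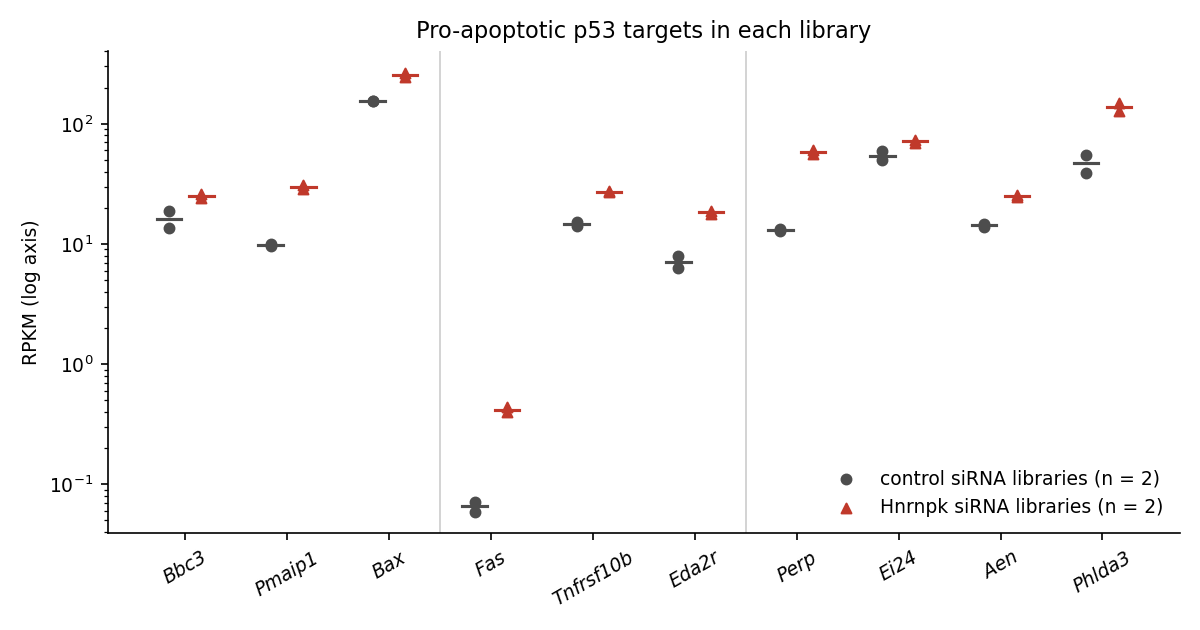
RPKM (vertical log axis) of each gene in the 2 control siRNA libraries (circles) and the 2 Hnrnpk siRNA libraries (triangles), with bars at the group means; vertical lines separate the mitochondrial regulators, the death receptors and the other effectors. The libraries of the 2 groups do not overlap for any of the 10 genes, and Fas lies far below the other genes in both groups.

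The mitochondrial regulators come first. Bbc3 encodes PUMA, a BH3-only protein that binds every anti-apoptotic BCL2 protein (GRCm38 chromosome 7, 16308393 to 16318205, protein coding). It stood at 18.7 and 13.6 RPKM with control siRNA and at 24.1 and 25.9 RPKM with Hnrnpk siRNA. The control libraries lay far apart for this gene, yet both stayed under the Hnrnpk siRNA libraries. Bbc3 rose by 0.63 on the log2 scale (SE 0.122, limma adjusted p = 0.00127). This change was the most dependent on the processing among the 9: it was 0.41 without control replicate 2, and 0.95 when each library's trend on GC content was removed, an alternative chosen after the data were seen. Bbc3 was called with GC trends removed (limma adjusted p = 6.23e-05). Over the alternatives that kept all libraries, its limma adjusted p ran from 7.20e-07 to 0.0268. Without control replicate 2 a single control library is left, so the spread between control libraries does not enter that fit.

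Pmaip1 encodes NOXA, a BH3-only protein that mainly neutralises MCL1 (chromosome 18, 66458533 to 66465565, protein coding). Its values were 9.99 and 9.62 RPKM after control siRNA and 30.8 and 28.8 RPKM after Hnrnpk siRNA. Replicates lay close together in both groups, and Pmaip1 rose by 1.55 on the log2 scale (SE 0.0684, limma adjusted p = 1.60e-07). Bax encodes the pore-forming effector on which BH3-only proteins act (chromosome 7, 45461697 to 45466898, protein coding). It was the most abundant of the 10 genes, at 154.9 and 154.7 RPKM with control siRNA against 243 and 266 RPKM with Hnrnpk siRNA. The control libraries were nearly equal and the Hnrnpk siRNA libraries clearly higher, a change of 0.72 on the log2 scale (SE 0.0686, limma adjusted p = 1.55e-05). With GC trends removed the change was 1.001. Part of the Bax transcript, 194 of 1100 bases, is identical to the overlapping gene model Gm45808 on the same strand, so reads there could have been assigned to either.

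The death receptors had lower levels than Bax. Fas, the receptor for FAS ligand (chromosome 19, 34290666 to 34327772, protein coding), was barely detected, at 0.0715 and 0.0592 RPKM in the control and 0.398 and 0.439 RPKM with Hnrnpk siRNA. Both Hnrnpk siRNA libraries were higher, but even there Fas stayed under 0.5 RPKM. The ratio of means was 6.40, the largest of the 10, while the log2 change was 0.70 because the added 0.5 RPKM compresses low values. With no filter on low values, which raised the genes tested to 18814, limma called Fas higher (SE 0.0361, adjusted p = 0.000799).

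Tnfrsf10b encodes the mouse death receptor for TRAIL (chromosome 14, 69767472 to 69784411, protein coding). It stood at 15.3 and 13.97 RPKM after control siRNA and at 27.4 and 27.0 RPKM after Hnrnpk siRNA. The groups were well separated, and Tnfrsf10b rose by 0.87 on the log2 scale (SE 0.0695, limma adjusted p = 4.93e-06). Of its longest coding transcript, 17.9% matched other genes at 95% identity or more. The longest match, 405 bases at 97.5% identity, was to the pseudogene Gm15574, so its level is uncertain to that extent. Eda2r encodes XEDAR, the receptor for the A2 form of ectodysplasin (chromosome X, 97333840 to 97377216, protein coding). It rose from 7.93 and 6.25 RPKM to 17.9 and 18.9 RPKM, a change of 1.32 on the log2 scale (SE 0.101, limma adjusted p = 3.90e-06). The gap between the groups exceeded the gap between the control libraries.

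The remaining 4 genes act elsewhere in the cell. Perp encodes a tetraspan membrane protein that is also a component of desmosomes (chromosome 10, 18845020 to 18857073, protein coding). It stood at 13.2 and 12.9 RPKM with control siRNA and at 56.4 and 60.6 RPKM with Hnrnpk siRNA. Perp had the largest log2 change of the 9 tested genes, 2.12 (SE 0.0659, limma adjusted p = 3.08e-08), above that of 99.5% of all genes tested. Phlda3 encodes a protein made of little more than a pleckstrin homology domain, which competes with the survival kinase AKT for membrane lipids (chromosome 1, 135766119 to 135769136, protein coding). Its values were 54.7 and 38.8 RPKM after control siRNA and 128 and 150 RPKM after Hnrnpk siRNA. On the log2 scale Phlda3 varied most of the 10 between replicates in both groups, and still rose by 1.58 (SE 0.138, limma adjusted p = 8.63e-06).

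Aen encodes apoptosis-enhancing nuclease, an exonuclease of the nucleus and nucleolus (chromosome 7, 78895854 to 78911209, protein coding). It stood at 14.7 and 13.8 RPKM in the control and 24.4 and 25.8 RPKM with Hnrnpk siRNA, a change of 0.80 on the log2 scale (SE 0.0682, limma adjusted p = 7.73e-06). Ei24 encodes a membrane protein of the endoplasmic reticulum with a role in autophagy (chromosome 9, 36779159 to 36797393, protein coding). It moved least, from 58.8 and 49.6 RPKM to 69.6 and 73.5 RPKM. The log2 change of Ei24 was 0.40 (SE 0.0836, limma adjusted p = 0.00198), above that of 81.7% of all genes tested and between 0.28 and 0.52 over its alternatives. Ei24 overlaps the antisense gene Gm26787 over 324 exonic bases, and whether the counting used strand is not given.

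**Figure D2:**
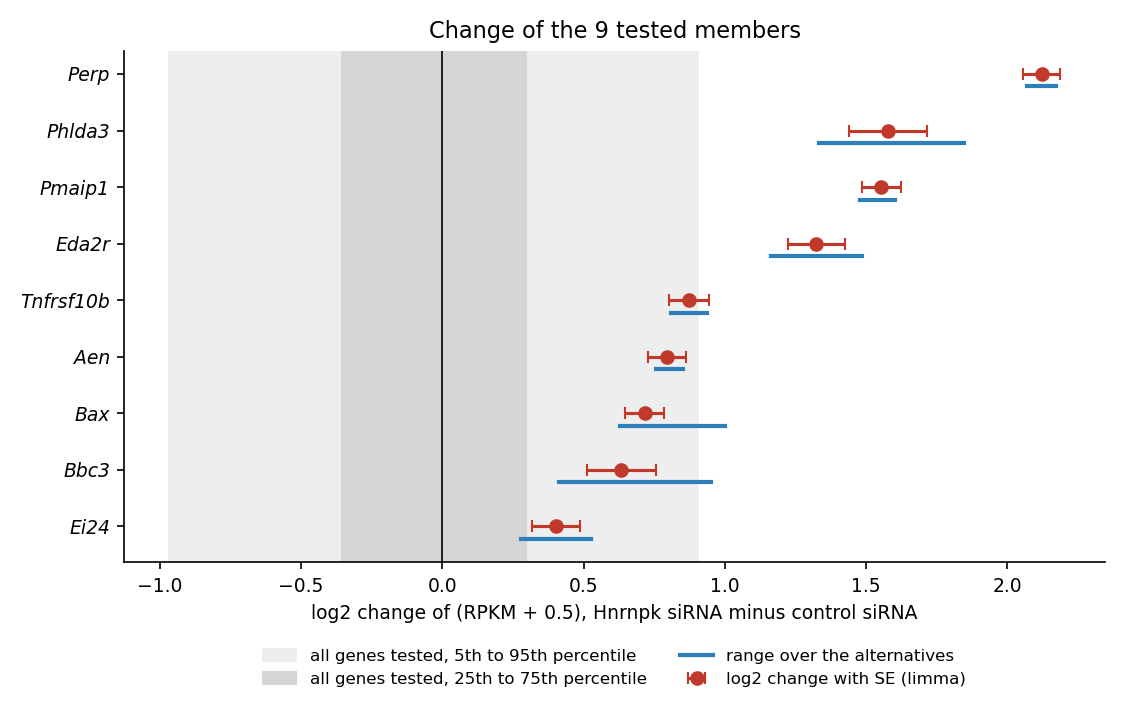
Log2 change of (RPKM + 0.5), Hnrnpk siRNA minus control siRNA (horizontal axis), for the 9 tested genes with its SE, and below each the range over the alternatives; bands give the 5th to 95th and 25th to 75th percentiles of all genes tested (-0.97 to 0.91 and -0.35 to 0.30). Perp, Phlda3, Pmaip1 and Eda2r lie beyond the 95th percentile, and Ei24 has the smallest change, 0.40.

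The sizes of the changes fell into steps that the libraries could partly resolve. For each gene the log2 difference was taken for the 4 pairings of a Hnrnpk siRNA with a control library. Perp, between 2.05 and 2.19, lay apart from every other gene. Phlda3 (1.22 to 1.94), Pmaip1 (1.48 to 1.63) and Eda2r (1.13 to 1.52) overlapped one another in that order and lay above the next gene, Tnfrsf10b (0.80 to 0.95). From Tnfrsf10b through Aen, Bax, Fas and Bbc3 to Ei24 (0.24 to 0.56), each gene overlapped its neighbour in the order. The place of Fas depends on the added 0.5 RPKM: by ratio of means it came first, at 6.40 against 4.48 for Perp. The 3 genes with a pair of half-sites, printed above, had changes of 0.63 (Bbc3), 0.72 (Bax) and 0.80 (Aen). Those with a window but no pair ranged from 0.40 (Ei24) to 1.58 (Phlda3).

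The order of levels, compared as RPKM and so per length of gene, also shifted. In the control libraries the order was Bax, Ei24, Phlda3, Bbc3, Tnfrsf10b, Aen, Perp, Pmaip1, Eda2r and Fas. There Ei24 and Phlda3 overlapped, as did Bbc3 with Tnfrsf10b and Tnfrsf10b with Aen. After Hnrnpk siRNA the order was Bax, Phlda3, Ei24, Perp, Pmaip1, Tnfrsf10b, Aen, Bbc3, Eda2r and Fas, and only Aen and Bbc3 overlapped. Perp went from rank 7 to rank 4, and Bbc3 from rank 4 to rank 8 although its own level rose. Summed over the 10 genes, the level was 348 and 313 RPKM in the control and 622 and 677 RPKM with Hnrnpk siRNA, a ratio of 1.96. Most of the sum in both groups came from Bax and Phlda3, whose own ratios of means were 1.65 and 2.97.

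Replicates differed in a direction shared by these genes. All 10 were higher in control replicate 1 than in control replicate 2, as were 57.3% of all genes tested. The same held for 10 of the 17 feedback and arrest targets of p53 described below. The median difference was 0.10 on the log2(RPKM + 0.5) scale for the 10 death targets against 0.023 for all genes tested. The difference was 0.49 for Phlda3, 0.44 for Bbc3, 0.32 for Eda2r and 0.24 for Ei24, and 0.0027 for Bax. In the other group, 8 of the 10 were higher in Hnrnpk siRNA replicate 2 than in replicate 1, as were 57.8% of all genes tested. The size of some changes moved with the control library used: the log2 change of Phlda3 was 1.82 without control replicate 1 and 1.33 without control replicate 2, and that of Ei24 was 0.52 and 0.28. The log2 changes of the 9 tested genes stayed above 0 whichever library was left out, the smallest being that of Ei24, 0.28. Such a fit keeps 1 library in a group, and the spread of that group does not enter it. The labels give no batch, and the cause of these differences was not tested.

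**Figure D3:**
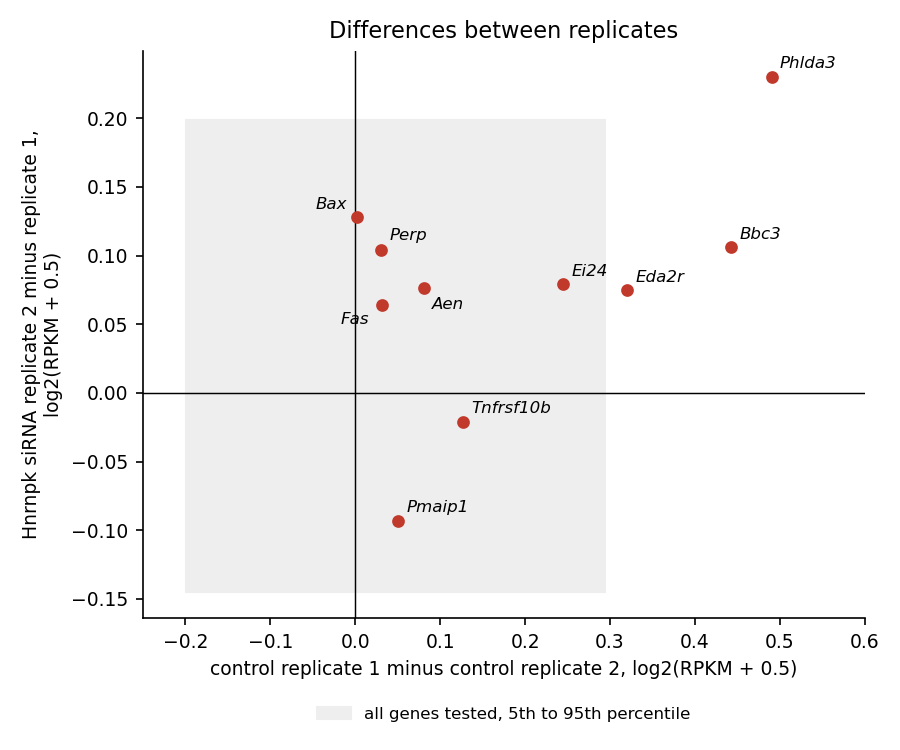
Difference between the 2 control libraries (horizontal axis, replicate 1 minus replicate 2) and between the 2 Hnrnpk siRNA libraries (vertical axis, replicate 2 minus replicate 1) on the log2(RPKM + 0.5) scale, 1 point a gene; the box spans the 5th to 95th percentiles of all genes tested on each axis. All 10 points lie to the right of 0 on the horizontal axis, and Phlda3, Bbc3 and Eda2r lie outside the box.

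Genes upstream of these targets moved in both directions. Trp53 itself stood at 280 and 284 RPKM in the control and at 385 and 375 RPKM with Hnrnpk siRNA, a change of 0.43 on the log2 scale (SE 0.0657, limma adjusted p = 0.00029). Mdm2, both the main inhibitor of p53 and its target, stood at 41.1 and 36.5 RPKM and at 117 and 121 RPKM, a change of 1.61 on the log2 scale (SE 0.0718, adjusted p = 1.76e-07). Among 25 tested genes of p53 and its regulators, 8 rose, 11 fell and 6 were not called, beside 32.2% called higher and 35.0% called lower among all genes tested. The median log2 change was -0.024. Besides Mdm2, the lowest p-values belonged to Trp73, a relative of p53 (0.944 and 0.795 against 4.92 and 5.04 RPKM, log2 change 2.002), and to the lysine methyltransferase gene Setd7 (5.58 and 5.33 against 1.77 and 1.63 RPKM, log2 change -1.44). Atr, a kinase of the replication stress response, fell with a log2 change of -1.52. Rchy1, a ubiquitin ligase for p53, and Sirt1, a deacetylase of p53, rose with log2 changes of 0.96 and 0.81.

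Other p53 targets tied to cell death also moved in both directions. Of 15 tested, 8 rose, 2 fell and 5 were not called, with a median log2 change of 0.26. Over all genes tested, 32.2% were called higher and 35.0% lower. Trp53inp1, a stress-induced partner of p53, went from 32.6 and 21.8 RPKM to 113 and 106 RPKM, a change of 2.02 on the log2 scale (SE 0.145, limma adjusted p = 2.62e-06). Ddit4, an inhibitor of mTORC1 signalling, rose with a log2 change of 1.33, Igfbp3, a binding protein of insulin-like growth factors, with 1.01, and the zinc finger gene Plagl1 with 0.86. Bid, whose product carries the signal of caspase-8 to mitochondria, fell with a log2 change of -0.53. The feedback and arrest targets of p53 had a median of 0.73 over 17 tested genes, 13 higher and 1 lower; none was called lower without Hnrnpk siRNA replicate 1, without Hnrnpk siRNA replicate 2, with no filter or under quantile normalization. Cdkn1a, which encodes the cyclin-dependent kinase inhibitor p21, stood at 25.6 and 16.2 RPKM and at 73.4 and 79.5 RPKM, a log2 change of 1.88, and Plk2, Ccng1, Sfn, Btg2 and Sesn2 rose with log2 changes of 2.90, 1.89, 0.90, 1.62 and 0.73.

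Genes around the death receptors moved in both directions. Of 15 tested genes of the pathway 5 rose, 5 fell and 5 were not called, with a median log2 change of 0.033. These counts lie near the shares of all genes tested, 32.2% called higher and 35.0% called lower. The split of the pathway genes depended on the processing. Under quantile normalization 7 rose and 3 fell, and with GC trends removed 7 rose and 5 fell. Leaving out the filter also brought in the low genes of the pathway, and of 24 then tested 7 rose and 4 fell. Without Hnrnpk siRNA replicate 1, 5 rose and 2 fell, and without Hnrnpk siRNA replicate 2, 4 rose and 2 fell. Ngfr, a receptor of neurotrophins with a death domain, went from 3.90 and 4.47 to 16.8 and 17.7 RPKM, a change of 1.92 on the log2 scale (SE 0.0832, limma adjusted p = 1.50e-07). The adaptor genes Ripk1 and Traf2 rose with log2 changes of 0.91 and 0.60, while Tnfrsf1b and Tnfrsf22, receptors for TNF and TRAIL, fell with -0.91 and -0.54. Ligands of the 3 receptors among the 10 genes, named after their values were seen, were too low to be tested. The Fasl values lay between 0.00423 and 0.042 RPKM, the highest value of Tnfsf10 was 0.00347 RPKM, and Eda lay between 0.312 and 0.658 RPKM.

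Genes that act beside or after Bax went both ways, beside 32.2% called higher and 35.0% called lower among all genes tested. In the BCL2 family outside the 10 genes, 5 of 16 tested rose and 8 fell, with a median log2 change of -0.19; without Hnrnpk siRNA replicate 2, 3 rose. Bok, a relative of Bax, fell from 23.0 and 23.8 to 9.22 and 10.3 RPKM (log2 change -1.22), and the BH3-only gene Bik fell with -0.95. Bcl2l1, which encodes the anti-apoptotic BCL-XL, went from 9.68 and 10.8 to 17.6 and 18.0 RPKM (log2 change 0.77, SE 0.0747, limma adjusted p = 1.66e-05), and Bcl2l12 rose with 0.68. Among 19 tested genes of the apoptosome, the caspases and their inhibitors, 7 rose and 7 fell, with a median of -0.038; without Hnrnpk siRNA replicate 1, 4 fell. Parp1, a DNA repair enzyme cut by caspases, fell from 396 and 385 to 249 and 236 RPKM (log2 change -0.69). Endog and Htra2, mitochondrial enzymes released in apoptosis, fell with -0.63 and -0.55; with GC trends removed these were -0.33 and -0.34. Birc5, which encodes the inhibitor survivin, rose with 0.47. Bid, Apaf1, Mdm2 and Ppm1d are each counted in 2 of the lists.

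**Figure D4:**
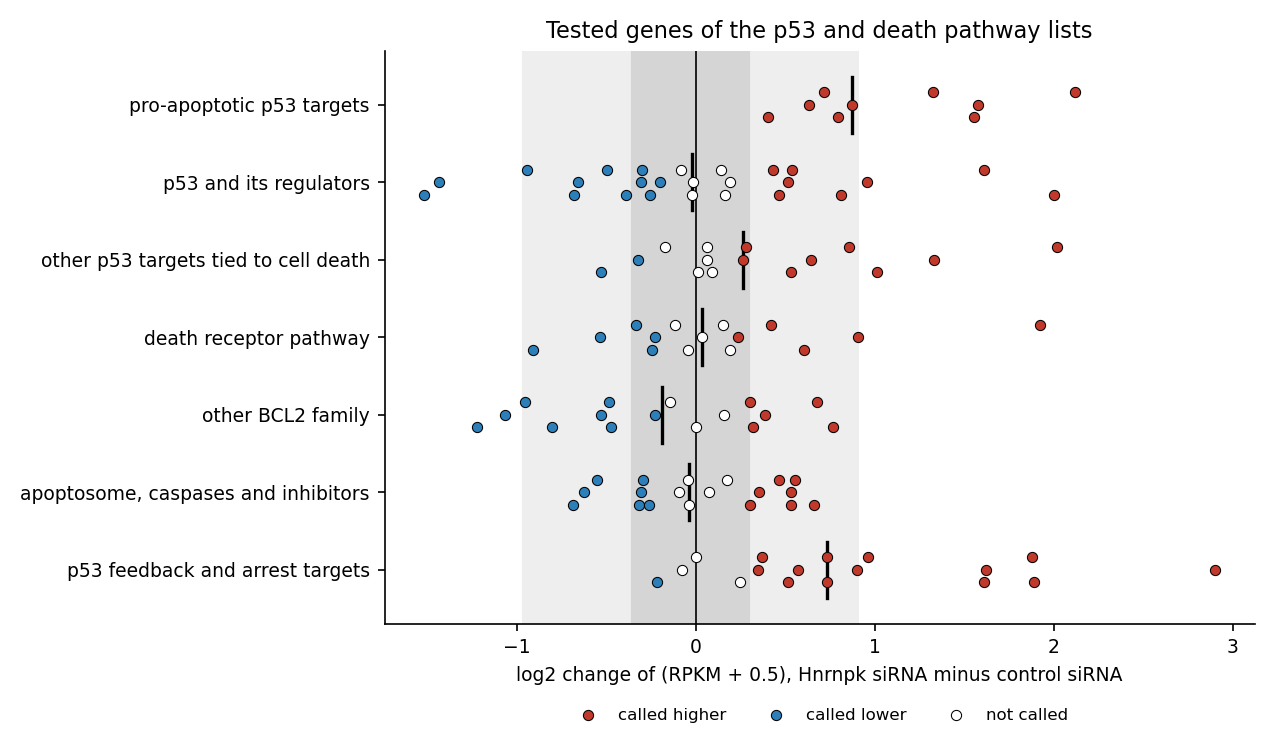
Log2 change of (RPKM + 0.5), Hnrnpk siRNA minus control siRNA (horizontal axis), 1 point a tested gene, for the pro-apoptotic p53 targets and 6 pathway lists; red and blue points were called higher and lower and white points were not called, black bars are list medians, and bands give the 5th to 95th and 25th to 75th percentiles of all genes tested. The 9 tested targets all lie above 0 with a median of 0.87, the feedback and arrest targets have a median of 0.73, and the medians of the other 5 lists lie between -0.19 and 0.26.

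Markers of other cell types moved in the same comparison. Of the primitive endoderm markers, 6 of 7 tested rose and none fell. Among these 6, Pdgfra (0.191 and 0.149 against 0.835 and 0.961 RPKM) passed the filter only through the Hnrnpk siRNA group. At its control level it could be tested only if it rose, so its call is no support. Pdgfra was named after its values were seen. The primitive endoderm list summed to 20.99 to 21.84 RPKM in the control and 63.1 to 65.0 RPKM with Hnrnpk siRNA. Trophectoderm markers rose for 6 of 7 tested and fell for 1, and summed to 75.4 to 79.6 and 114 to 118.5 RPKM. Over all genes tested, 32.2% were called higher and 35.0% lower. No marker of either list was listed at 0 in all libraries. Their part in the changes of the 10 genes was not tested.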

How the data were processed

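RNA-seq of 4 libraries, 2 per group, was analysed from 1 table of RPKM values deposited by the authors, with a column for each library. BWA, SAMtools and the build mm9 are named in the submitters' processing notes; the counting tool, annotation, strandedness and versions are not given there or in the labels. Groups were taken from the sample titles. Values were analysed as log2(RPKM + 0.5), on which the change of low genes is understated. The groups were compared in limma 3.58.1 (R 4.3.3) with a mean-variance trend, two-sided, over the 12486 genes whose mean reached 0.5 RPKM, with Benjamini-Hochberg adjustment over all of them and calls at an adjusted p under 0.05. The fit was tested on simulated data in which the spread of each gene followed a smooth curve on its level. That test did not cover genes of the same level that differ in spread. P-values set the difference between the groups against the spread between these libraries, with variance pooled over genes. They do not cover the spread between cell lines. No counts were recovered, so absolute depth is unknown and no count model or counting interval was used.

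The 10 genes, the 6 pathway lists and the 4 marker lists were chosen with earlier results of these data known. Named beside the 10 genes were Hnrnpk, Trp53, Mdm2, Cdkn1a and, for each pathway list, up to 5 other called genes with the lowest p; of the genes next to the 10, those called whose log2 change was 1 or more in size. Of the genes this rule names, 1 is not reported here. Lists were matched by symbol, and 1 gene of the p53 targets tied to cell death was not analysed here. Gene positions and transcripts came from GENCODE M21 on GRCm38, matched by identifier, and promoters from RefSeq on GRCm38.p6, both another build than mm9. BLAST 2.17.0 was used to look for shared stretches between transcripts, counting those of 100 bases or longer with 95% identity or more. The alternatives were adding 0.1 or 1 RPKM, leaving out the filter or setting it at 1 RPKM, median-of-ratios or quantile scaling, no variance trend, a replicate block, each library left out and, added after the data were seen, GC trends removed (98.3% of genes tested had a GC value).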

Additional observations from a re-analysis of the deposited data

How the results depend on the processing

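Of the 13 alternatives, those that kept all libraries each called the 9 tested genes higher, and 10 were called with no filter, where Fas was tested. With a library left out, the log2 changes of the 9 tested genes were 0.28 or more. Such a fit keeps 1 library in a group, whose spread does not enter it. Counts given below with a library left out have the same limit. Among the 9 tested genes, the log2 change of Bbc3 moved most, to 0.41 without control replicate 2 and 0.95 with GC trends removed. Of the other genes named, Endog moved from -0.63 to -0.33 and Htra2 from -0.55 to -0.34 with GC trends removed, and both were still called. Counts of called genes that moved by over 1.5 times were all in pathway lists. Death receptor genes that fell went from 5 to 3 under quantile normalization, where those that rose went from 5 to 7, and to between 2 and 5 with a library left out. With a library left out, BCL2 family genes that rose numbered 3 to 6, and apoptosome and caspase genes that fell 4 to 7. The 1 arrest target that fell became 0 with no filter and under quantile normalization, and 0 to 1 with a library left out. The cause was not tested. With the replicate number as a block, the 9 genes were still called higher, and over all genes 4162 were called higher and 4460 lower against 4025 and 4371 without it. The correlation of deviations between libraries of the same number was 0.027 over 12486 genes, and the numbers were not treated as pairs. Absolute depth is unknown, which limits what can be said of genes as low as Fas.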

Other observations

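The protein-coding genes on either side of each of the 10 targets were compared with them. Of these 20 neighbours, 12 were tested, 3 were called higher and 5 lower, and the median log2 change was -0.088. The shares over all genes tested were 32.2% called higher and 35.0% called lower. Only Ftl1 and Tnni1 changed by at least 1 in size on the log2 scale. Ftl1, next to Bax and encoding the ferritin light chain, went from 1011 and 930 RPKM to 1964 and 2034 RPKM, a change of 1.04 on the log2 scale (SE 0.0846, limma adjusted p = 5.56e-06); it has near-identical copies in the genome, so its level is uncertain. Tnni1, next to Phlda3 and encoding a troponin of slow skeletal muscle, went from 1.51 and 1.36 RPKM to 0.392 and 0.501 RPKM, a log2 change of -1.03 (SE 0.104, adjusted p = 2.00e-05). The gene before Perp was near 0 in every library and the one after it, Tnfaip3, stayed under 0.5 RPKM, and both neighbours of Pmaip1 and of Eda2r stayed under the mean of 0.5 RPKM needed for a test; Tnfaip3 was chosen after its values were seen.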
